A study of Mus musculus with 32 samples.

Results

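Wild-type mouse lung was compared across birth, between a late fetal age and the fifth postnatal day. The comparison used the 7 arrays labelled Gsr-WT at embryonic day 19 (E19, 4 arrays) and Gsr-WT at postnatal day 5 in air (P5, 3 arrays), of 32 arrays in the series. The series also profiled mice without glutathione reductase (Gsr-KO) and mice that breathed 100% oxygen. All mice were C3H/HeN, and the compared animals carried functional Gsr, the enzyme that regenerates reduced glutathione. E19 lungs came from embryos that had no gas exposure. The P5 pups stayed with their dams in room air from day 0 to day 5. Each array held total RNA from a portion of the lung of 1 mouse, and sex was not among the labels. The P56 arrays of adult Gsr-WT mice kept in room air (3 arrays) are given as levels beside some genes and are compared in no test, though all 32 arrays share the estimate of spread.

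At birth the lung changes from a fluid-secreting organ into one that absorbs fluid and exchanges gas. Oxygen tension in the tissue rises, and hypoxia-inducible factors, which the oxygen-dependent prolyl hydroxylases mark for destruction, lose stability as it does. The days around birth also bring a surge of glucocorticoid hormone, the use of glycogen stores, the switch from placental glucose to milk fat, and the first contact with airborne microbes. In the mouse the first postnatal days precede the growth of secondary septa, when elastin and other matrix proteins are laid down and the capillary bed is remodelled.

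Signals are deposited linear intensities, and each gene is represented by 1 probe set, the one of highest mean signal. A change is the log2 difference, P5 minus E19, of group means after an offset of 26.3 was added, given with an SE (standard error). A gene is called where its p from limma, adjusted over the 13345 tested genes, is under 0.05. Genes are described as having risen or fallen only where they were called. Where all arrays of a group lay under 100.4, the median of all values, "at least" gives the change with that group set to 100.4. Array values are listed in the order of the replicate numbers. The p-values rest on the spread between mice within all 10 groups of the series, and precision is limited by there being few arrays. In bulk RNA, fewer cells of a type and less RNA per cell cannot be told apart. Gsr itself read 691, 803, 559.9 and 756 at E19 and 509.5, 498 and 889.8 at P5, which overlap, with a change of -0.18 (SE 0.17, limma adjusted p = 0.54).

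The arrays were not uniform within the groups. Summed signal ran from 31515500 to 34377500 per array. The log2 ratio of 3′ to 5′ signal in actin and Gapdh controls, a sign of RNA and labelling quality, was -0.06 to 0.20 at E19 and 0.32 to 0.43 at P5. Its part in the results was not tested. The E19 arrays correlated at 0.881 to 0.973 with each other and the P5 arrays at 0.969 to 0.984. E19 replicate 4 had the lowest levels of several cell lists and E19 replicate 1 stood apart in tissue makeup, as described with the plot of other tissues. Xist, the RNA of the inactive X chromosome, read 7659, 60.5, 12040.0 and 165 on the E19 arrays and 235, 8406 and 588 on the P5 arrays. Eif2s3y, a Y-linked gene, read 0.846, 1928, 31 and 2537 on the E19 arrays and 2132, 256 and 2174 on the P5 arrays. Arrays high in Xist and arrays high in Eif2s3y were present at both ages. Genes that define lung read high on all 7 arrays, as given for Sftpc and Ager.

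Across birth, 1946 of 13345 genes (14.6%) changed, 1115 upward (8.36%) and 831 downward (6.23%), and 775 of them by over 2-fold. The arrays of E19 and P5 did not overlap for 3938 genes (29.5%), of which 1738 were called. The median change over all genes was 0.01. The share of a list that rose is to be read against 8.36% of all genes, and the share that fell against 6.23%. Among the 25 strongest increases were Ms4a4b, a surface protein of lymphocytes (at least 2.14), Prokr2, a prokineticin receptor (at least 1.96), and Stmn2, a microtubule regulator (2.40). Among the 25 strongest decreases were Tmem213 (-3.38), Crh, the corticotropin-releasing hormone (at least -1.68), Scara5, a ferritin receptor (-2.91), and Gadd45g, a growth-arrest gene (-2.25). Crh read 568, 364, 414 and 237 on the E19 arrays and 21.8, 11 and 11.3 on the P5 arrays. The 4 E19 arrays were all above the filter signal and the 3 P5 arrays all near the floor (limma adjusted p = 6.1e-08).

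**Figure D1:**
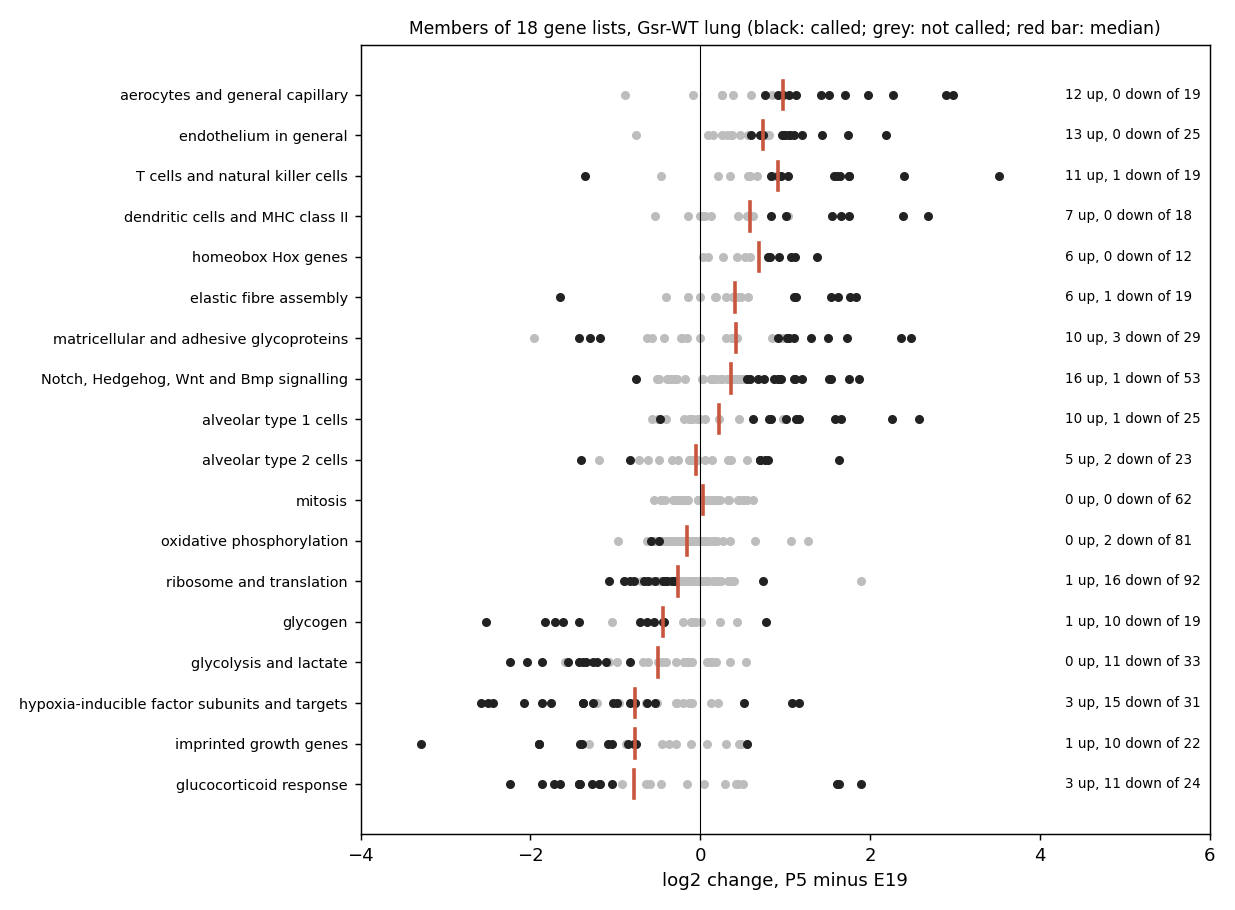
Log2 change from E19 to P5 (horizontal axis) of each measured member of 18 gene lists in Gsr-WT lung, with 1 point per gene, black where called and grey where not. The red bar is the median of the list, from -0.78 for glucocorticoid response genes to 0.97 for capillary genes.

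Many genes that hypoxia-inducible factors (HIF) drive fell. Of 31 measured HIF subunits, regulators and targets 15 fell and 3 rose, against 6.23% and 8.36% of all genes, and the median change was -0.76 against 0.01 for all genes. The 15 that fell became between 11 and 15 when any 1 array was left out. The level of the list, the mean of its centred log2 values, was 0.69, 0.50, 0.56 and 0.38 on the E19 arrays and -0.21, -0.27 and -0.25 on the P5 arrays, so the groups do not overlap. The strongest decrease was in Hif3a, an inducible HIF subunit that lacks part of the activation domain. Hif3a read 3923, 3899, 3277 and 2458 on the E19 arrays and 667, 542 and 424 on the P5 arrays. The change was -2.58 (SE 0.39, limma adjusted p = 9.7e-05), and P56 arrays lay lower again, at 311, 252 and 228. Ndrg1, a hypoxia-induced gene of the stress response, and Ankrd37, an ankyrin-repeat gene, followed with -2.50 and -2.44. Ndrg1 read 5318, 5933, 4524 and 5553 on the E19 arrays and 1142, 957 and 708 on the P5 arrays. Ankrd37 read 1416, 845, 1824 and 1067 on the E19 arrays and 261, 269 and 124 on the P5 arrays. No P5 array of either gene reached the lowest E19 array.

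Feedback and metabolic targets of HIF were also among the genes that fell. Egln3, a prolyl hydroxylase that is itself HIF-induced, fell by 2.08 (SE 0.32, limma adjusted p = 0.00013). Egln3 read 1587, 1040.5, 1401 and 1184 on the E19 arrays and 339.7, 316 and 214 on the P5 arrays. The other prolyl hydroxylases gave -0.76 for Egln2, a call lost without any 1 of the 7 arrays (adjusted p up to 0.14), and -0.51 for Egln1, which was not called (adjusted p = 0.067). Bnip3, a mitophagy receptor, changed by -1.76, Pdk1, the kinase that shuts pyruvate dehydrogenase, by -1.38, and Ak4, a mitochondrial adenylate kinase, by -1.38. Bnip3 read 6866, 7170.1, 7605 and 11529 on the E19 arrays and 2640.4, 2140.5 and 2359.7 on the P5 arrays. Kdm3a, a HIF-induced histone demethylase, fell by 1.03. Apart from Egln2, these decreases and those of Hif3a, Ndrg1 and Ankrd37 were called in each of 19 alternative analyses. Egln1, Egln2, Ak4 and Kdm3a were picked for description after their values were seen.

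Not every member of the pathway followed. Epas1, which encodes the HIF2 alpha subunit that is abundant in lung endothelium, rose by 1.17 (SE 0.16, limma adjusted p = 2.5e-05). Epas1 read 8289.7, 8123, 8891 and 4925 on the E19 arrays and 18678, 14843 and 16439.7 on the P5 arrays. Every P5 array was above every E19 array. The partner subunit Arnt rose by 0.52, a call lost without E19 replicate 4 or P5 replicates 1 or 2 (adjusted p up to 0.089), and Stc1, a secreted glycoprotein, by 1.08. Hif1a, the main oxygen-regulated subunit, read 5708, 5098, 4898 and 4679.7 at E19 and 5446, 5816 and 6395 at P5, and its change of 0.21 was not called (adjusted p = 0.36). Vegfa, the HIF-responsive endothelial growth factor, had a change of -0.13 (adjusted p = 0.73) with overlapping arrays.

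**Figure D2:**
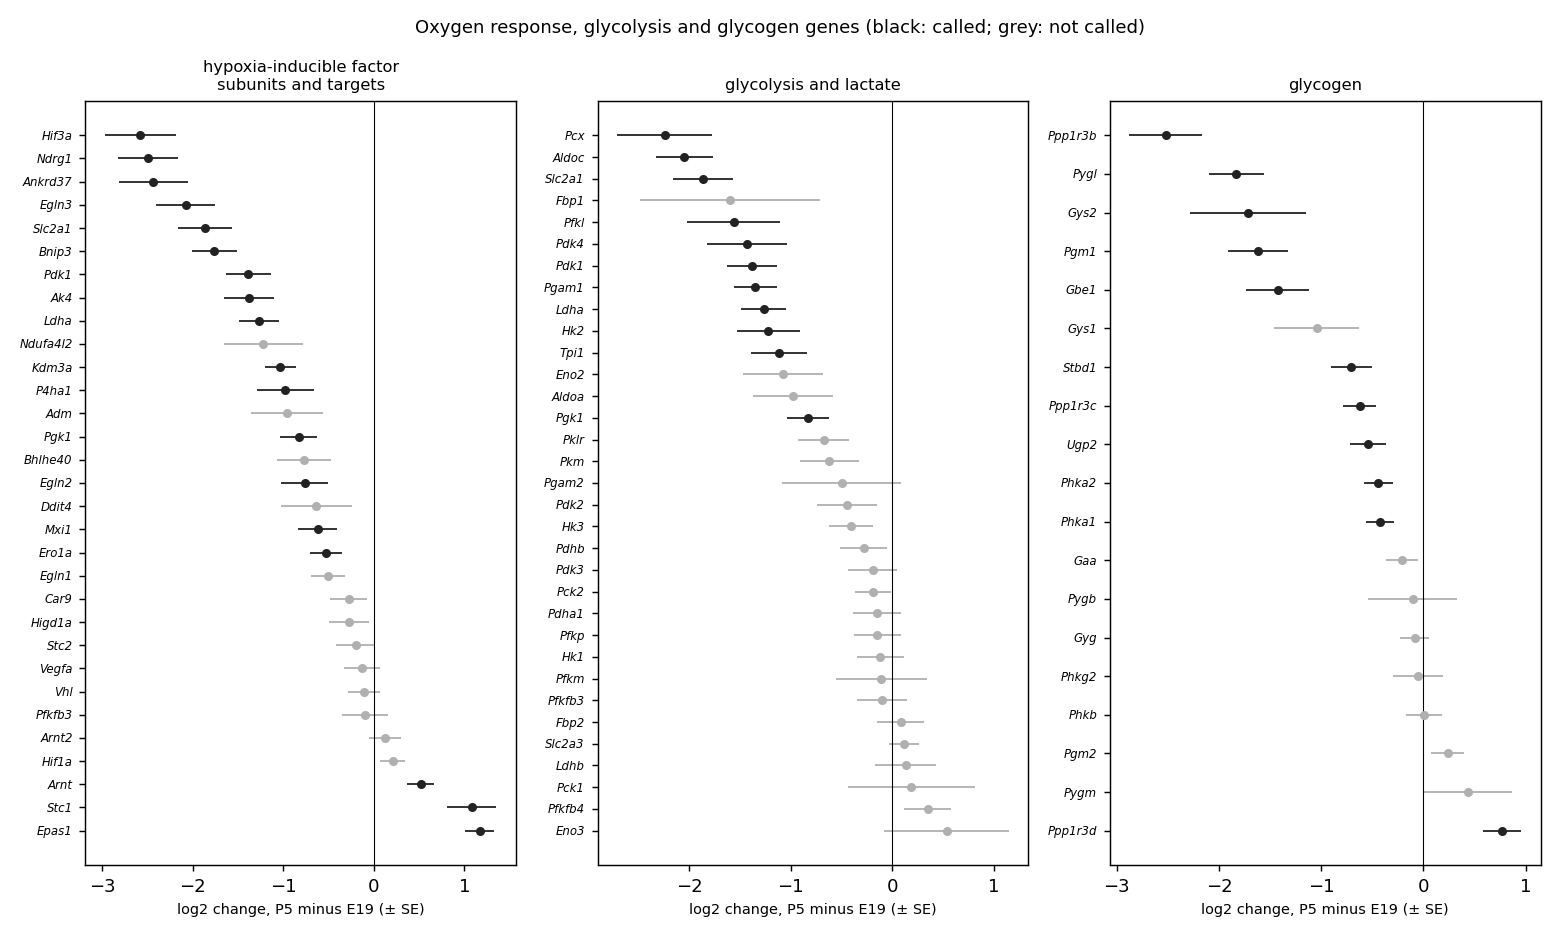
Log2 change from E19 to P5 with its SE (horizontal axis) of each measured gene of the HIF, glycolysis and glycogen lists, black where called and grey where not. The lowest points are Hif3a at -2.58, Pcx at -2.24 and Ppp1r3b at -2.52, and Epas1 at 1.17 is the highest of the HIF list.

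HIF binds DNA at a short core, ACGTG, which was searched on both strands (CACGT on the other strand, where the palindrome CACGTG holds both) in the 250 bases before the gene start given by RefSeq (GRCm38.p6). For genes with several starts the first listed was used. Of the 15 HIF-list genes that fell 14 had a window, and 9 of these (64.3%) held the core. It was in 5 of 12 windows (41.7%) of the other measured members, in 143 of 668 windows (21.4%) of all genes that fell, and in 2283 of 10729 windows (21.3%) of all tested genes. The 5 that fell without the core in the window used included Hif3a, Pdk1, Ak4 and Kdm3a. A match describes the letters and not a bound site. Of the genes with the core, the windows of 4 are shown, chosen because their decreases were among the largest of the list, or because the core recurs, as in Ldha. Capitals mark the core on either strand.
Ankrd37: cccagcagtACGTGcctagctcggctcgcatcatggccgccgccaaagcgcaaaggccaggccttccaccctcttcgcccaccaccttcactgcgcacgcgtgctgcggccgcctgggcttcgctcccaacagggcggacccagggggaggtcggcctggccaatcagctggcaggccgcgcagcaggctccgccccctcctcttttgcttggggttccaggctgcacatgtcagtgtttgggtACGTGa
Egln3: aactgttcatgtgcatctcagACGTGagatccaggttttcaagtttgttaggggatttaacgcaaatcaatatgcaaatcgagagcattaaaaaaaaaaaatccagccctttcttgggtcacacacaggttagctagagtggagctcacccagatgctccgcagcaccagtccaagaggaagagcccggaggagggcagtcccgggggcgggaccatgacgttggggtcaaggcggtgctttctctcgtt
Bnip3: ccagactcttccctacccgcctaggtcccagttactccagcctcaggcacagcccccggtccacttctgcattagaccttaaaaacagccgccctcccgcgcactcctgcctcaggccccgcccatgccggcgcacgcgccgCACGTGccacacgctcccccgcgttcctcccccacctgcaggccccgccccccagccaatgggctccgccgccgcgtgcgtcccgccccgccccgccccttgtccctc
Ldha: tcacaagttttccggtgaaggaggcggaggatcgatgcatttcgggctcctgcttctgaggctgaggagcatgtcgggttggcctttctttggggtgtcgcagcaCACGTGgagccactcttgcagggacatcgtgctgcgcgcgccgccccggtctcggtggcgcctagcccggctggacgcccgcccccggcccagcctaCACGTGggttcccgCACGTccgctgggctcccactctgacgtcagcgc
The windows lie at chr8:45999851-46000100 (minus strand) for Ankrd37, chr12:54203875-54204124 (minus strand) for Egln3, chr7:138909507-138909756 (minus strand) for Bnip3 and chr7:46845554-46845803 (plus strand) for Ldha, and each is written 5′ to 3′ in the direction of its gene.

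Glycolysis followed the HIF list, with which it shares members. Of 33 genes of glycolysis and lactate handling 11 fell (33.3%, against 6.23% of all genes) and none rose, with a median of -0.50. That median was -0.29 with array weights and -0.81 with muscle and squamous levels as covariates. Slc2a1, the glucose transporter GLUT1, fell on every P5 array. Slc2a1 read 3966, 4724, 2715 and 3349.6 on the E19 arrays and 1008, 964 and 955 on the P5 arrays. The change was -1.86 (SE 0.30, limma adjusted p = 0.00016), and the P56 arrays read 886, 1055 and 1052, close to P5. The enzymes that fell run along the pathway from Hk2 (-1.22) and Pfkl (-1.56) over Aldoc (-2.05) and Tpi1 (-1.11) to Pgk1 (-0.83), Pgam1 (-1.35) and Ldha (-1.27), which makes lactate. Aldoc read 1006, 1143, 956 and 1369 on the E19 arrays and 230.1, 262 and 255 on the P5 arrays. Ldha read 9845, 8849, 9190.4 and 12168 on the E19 arrays and 3919, 3409 and 5218 on the P5 arrays. Both genes were lower on every P5 array than on any E19 array. Slc16a1, a lactate and ketone carrier, fell by 0.93. The call of Pfkl was lost without E19 replicate 1 or P5 replicates 1, 2 or 3 (adjusted p up to 0.068). Hk2, Tpi1, Pgk1, Pgam1 and Slc16a1 were picked after their values were seen. The largest change was in Pcx, pyruvate carboxylase, at -2.24. Pcx read 1227, 2744, 1759 and 3830.3 on the E19 arrays and 507, 353 and 481 on the P5 arrays. Its E19 values had the same order over the arrays as the level of liver genes, and it was also called with that level as a covariate.

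Few genes of respiration were called. Of 81 genes of oxidative phosphorylation 2 fell and none rose, with a median of -0.15 (-0.056 without E19 replicate 4 and -0.23 without E19 replicate 3), and in the citric acid cycle 1 of 23 rose and 1 fell. The downward share of the former list was 2.47%, against 6.23% of all genes.

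Fetal lung epithelium stores glycogen, which is a carbon source for surfactant lipid. Of 19 glycogen genes 10 fell (52.6%) and 1 rose (5.26%), against 6.23% and 8.36% of all genes, with a median of -0.44. Ppp1r3b, the subunit that brings protein phosphatase to glycogen and favours its synthesis, fell by 2.52 (SE 0.36, limma adjusted p = 4.8e-05). Ppp1r3b read 3855, 3446, 4038 and 3704 on the E19 arrays and 805, 553 and 568 on the P5 arrays. The E19 arrays lay close together and P56 was lower than P5, at 305, 292 and 312. Enzymes of breakdown and synthesis fell alike. Pygl, glycogen phosphorylase, fell by 1.83, phosphoglucomutase Pgm1 by 1.62 and the branching enzyme Gbe1 by 1.42. Pygl read 5513, 5988, 7352 and 8495 on the E19 arrays and 1793, 1711 and 2155 on the P5 arrays. Gys2, the liver form of glycogen synthase, was called lower (at least -1.08) but overlapped, and its call was lost without any 1 array other than E19 replicate 1 (adjusted p up to 0.17). Gys2 read 14.4, 557, 308 and 624 on the E19 arrays and 80.5, 62.9 and 30.8 on the P5 arrays. Replicate 1, the lowest E19 array, was also the lowest in liver genes. Ppp1r3d, another targeting subunit, rose by 0.77. The count of 10 fell to 6 without E19 replicate 3 and to 5 without P5 replicate 1 or P5 replicate 2.

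In fatty acid handling 10 of 53 genes fell (18.9%) and 2 rose (3.77%), against 6.23% and 8.36% of all genes. The pair that rose were Cpt1a, which admits fatty acids to the mitochondrion, and Angptl4, an inhibitor of lipoprotein lipase. Cpt1a read 1354, 1651, 1245 and 1139 on the E19 arrays and 3211, 4016 and 3246 on the P5 arrays. Angptl4 read 415, 524, 325 and 573 on the E19 arrays and 1705, 2017 and 1536 on the P5 arrays. Their changes were 1.36 and 1.89 (limma adjusted p = 0.0025 and 0.0012), and both were called in all 19 alternatives. Those that fell included Dgat2, which makes triglyceride (-1.73), Pdk4 (-1.43), the ketone enzyme Bdh1 (-1.67) and the lipid droplet protein Plin5 (-1.45). Bdh1 read 289, 1165, 508 and 1629 on the E19 arrays and 222, 214 and 199.9 on the P5 arrays. The E19 array with the lowest Bdh1 value was replicate 1, the lowest in liver genes. The call of Pdk4, a kinase that favours fat over glucose, was lost without P5 replicates 2 or 3 (adjusted p up to 0.059). With the liver level as a covariate 5 of the list fell, and 4 without E19 replicate 4 and 3 without P5 replicate 2. Fasn, fatty acid synthase, read lower on every P5 array but was not called (-1.19, adjusted p = 0.065), and Scd1, stearoyl desaturase, had a change of -0.02. Amino acid breakdown genes fell in 6 of 29 cases (20.7%), including Cth (-1.99) and Cbs (at least -1.61), which make cysteine from homocysteine. This count was 10 without E19 replicate 1, and 2 without E19 replicate 2, E19 replicate 4 or P5 replicate 2, and 3 without P5 replicate 3.

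Several genes that glucocorticoid hormone induces fell. Of 24 measured genes of the glucocorticoid response 11 fell (45.8%) and 3 rose (12.5%), against 6.23% and 8.36% of all genes, with a median of -0.78. Without any 1 array between 10 and 11 fell, and with the liver level as a covariate 11 fell. Zbtb16, a zinc-finger repressor, changed by -2.24 (SE 0.44, limma adjusted p = 0.00102) and Klf15, a Kruppel-like factor of metabolic control, by -1.86 (SE 0.32, limma adjusted p = 0.00031). Zbtb16 read 799, 833, 797 and 631 on the E19 arrays and 139, 173 and 115 on the P5 arrays. Klf15 read 1096, 1131, 1093 and 1168 on the E19 arrays and 303, 271 and 294 on the P5 arrays. In both genes the highest P5 array stood far below the lowest E19 array. Fkbp5, the chaperone partner that dampens the receptor, fell by 1.18, and the factor Cebpd by 1.28. Fkbp5 read 1871, 1866, 1811 and 1619.5 on the E19 arrays and 947, 913 and 537 on the P5 arrays. Crispld2, a secreted protein of late lung development, fell by 1.72 although its P56 arrays, at 2842, 3117 and 3079.8, exceeded the E19 arrays.

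The enzymes that activate and inactivate corticosteroid moved in opposite directions. Hsd11b1, which regenerates active hormone, fell by 1.43 (SE 0.24, limma adjusted p = 0.00028). Hsd11b1 read 5759, 5426, 6355 and 6356 on the E19 arrays and 2091, 1935 and 2623 on the P5 arrays. Hsd11b2, which inactivates it, rose by 1.61 (SE 0.40, limma adjusted p = 0.0071). Hsd11b2 read 48.6, 86.8, 65.4 and 174 on the E19 arrays and 325, 308 and 309 on the P5 arrays. Neither gene overlapped between the ages. Sgk1, a kinase that raises sodium channel activity, rose by 1.63. Sgk1 read 2463, 2141, 2539 and 2913 on the E19 arrays and 7252, 7557 and 8632 on the P5 arrays. The receptor itself, Nr3c1, had a change of 0.04 (adjusted p = 0.91), and Per1, a clock gene and receptor target, -0.92 (adjusted p = 0.25). The metallothioneins Mt1 (-1.41) and Mt2 (-1.19) fell, with the highest E19 values on replicates 2 and 4, the arrays highest in liver genes. Mt1 read 6381, 16434, 7989 and 15463 on the E19 arrays and 4067, 3340.0 and 4706 on the P5 arrays. Every P5 array lay below every E19 array.

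Imprinted genes of fetal growth fell in 10 of 22 cases, and 1, Ndn, rose (0.55, a call lost without E19 replicates 2, 3 or 4 or P5 replicates 2 or 3 (adjusted p up to 0.24)). The shares were 45.5% down and 4.55% up, against 6.23% and 8.36% of all genes, and the median was -0.77. Dlk1, a Notch-like membrane ligand of immature cells, had the largest change of the list, -3.29 (SE 0.50, limma adjusted p = 0.00011). Dlk1 read 12476, 12666, 8982 and 7369 on the E19 arrays and 1642, 1172 and 536 on the P5 arrays. It read 79.6, 78.2 and 44.9 at P56. Igf2, the fetal insulin-like growth factor, fell by 1.90. Igf2 read 10559, 11146, 8332 and 13501 on the E19 arrays and 4201, 2625 and 2095 on the P5 arrays. At P56 it read 747, 723 and 759.8. Transcripts of the Dlk1 region, Meg3 (-1.39) and Mirg (-1.89), fell as well, as did the growth inhibitors Cdkn1c (-1.04) and Phlda2 (at least -0.41). The call of Meg3 was lost without P5 replicate 3 (adjusted p up to 0.051). Without P5 replicate 3 the count that fell was 6. Igf1 (0.23) and the growth-linked chromatin gene Hmga2 (-0.44) were not called, whereas the fetal RNA-binding protein gene Igf2bp3 fell (-0.83), a call lost without E19 replicate 2 or P5 replicates 1, 2 or 3 (adjusted p up to 0.0797).

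Mitosis genes showed no call. Of 62 mitosis genes none was called in limma's test, with a median of 0.04 that other settings put between -0.12 and 0.23, and leaving out E19 replicate 2 gave 2. Of these genes 3 had an unadjusted p under 0.05. Of 52 DNA replication genes 1 rose and 1 fell. Mki67, the marker of cycling cells, read 2781, 6002, 3219.9 and 5234 at E19 and 4378, 4162 and 2820.0 at P5, which overlap, and 472, 500.5 and 479 at P56. Among cyclins Ccnd2 (1.32) and Ccnd1 (0.89) rose and Ccna1 fell (at least -1.06). Ccnd2 read 4061, 3392, 2981 and 2017 on the E19 arrays and 7416, 7103 and 8301 on the P5 arrays. Ribosome and translation genes fell in 16 of 92 cases (17.4%) and rose in 1 (1.09%), with a median of -0.26, which was -0.086 after quantile normalization. The decreases were small, such as Rps6 (-0.83) and Rpl14 (-0.78), the level of this list was highest on E19 replicate 4, and the count was 10 without that array and 9 without P5 replicate 2. Ribosomal genes have many near-identical pseudogenes that probe sets may also detect.

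Endothelial genes rose, and none of either endothelial list fell. Of 19 genes of aerocytes and general capillary cells 12 rose (63.2%) and none fell, with a median of 0.97. The list level was -0.79, -0.88, -0.95 and -1.36 on the E19 arrays and 0.15, 0.11 and 0.07 on the P5 arrays, with every P5 array above every E19 array. Tmem100, a membrane protein induced by Bmp signalling in arterial and capillary endothelium, rose by 2.98 (SE 0.34, limma adjusted p = 2.2e-06). Tmem100 read 702, 591, 631 and 367 on the E19 arrays and 4945, 4614 and 4209 on the P5 arrays. Hpgd, which inactivates prostaglandins, rose by 2.89. Hpgd read 639.5, 666, 732 and 1083 on the E19 arrays and 4914, 5694 and 7123 on the P5 arrays. Car4, the carbonic anhydrase of the capillary surface that helps carbon dioxide leave the blood and marks aerocytes, rose by 2.27 (SE 0.24, limma adjusted p = 1.4e-06). Car4 read 551, 587, 682 and 479 on the E19 arrays and 2349, 2611 and 3803 on the P5 arrays. The 3 genes were higher still at P56, where Car4 read 6139.8, 6292 and 7036.

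Further capillary genes that rose were Chst1, a sulfotransferase (1.97), Sema3c, a guidance ligand (1.71), and the ligand Bmp6 (1.52). Kdr, the main receptor for Vegfa, rose by 0.97. Kdr read 2438, 2495, 2848 and 1430.0 on the E19 arrays and 4226, 4445 and 4554 on the P5 arrays. Ednrb, another marker of aerocytes, was not called, with a change of -0.09 (adjusted p = 0.84). Of 25 general endothelial genes 13 rose (52%, against 8.36% of all genes) and none fell, with a median of 0.74. They included Vwf, the clotting factor of larger vessels (2.18), Gja4, an arterial connexin (1.75), and Tek, the angiopoietin receptor (1.20), whose ligand Angpt1 rose by 1.43. Vwf read 1205, 987, 721 and 502 on the E19 arrays and 3842, 3689 and 3815 on the P5 arrays. Endothelial lists were lowest on E19 replicate 4, and without that array 10 capillary and 9 endothelial genes rose. Ramp3, a coreceptor for adrenomedullin, rose by at least 1.602, and the water channel Aqp1 of endothelium by 1.002. The call of Aqp1 was lost without E19 replicate 4 or P5 replicates 1 or 2 (adjusted p up to 0.062).

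**Figure D3:**
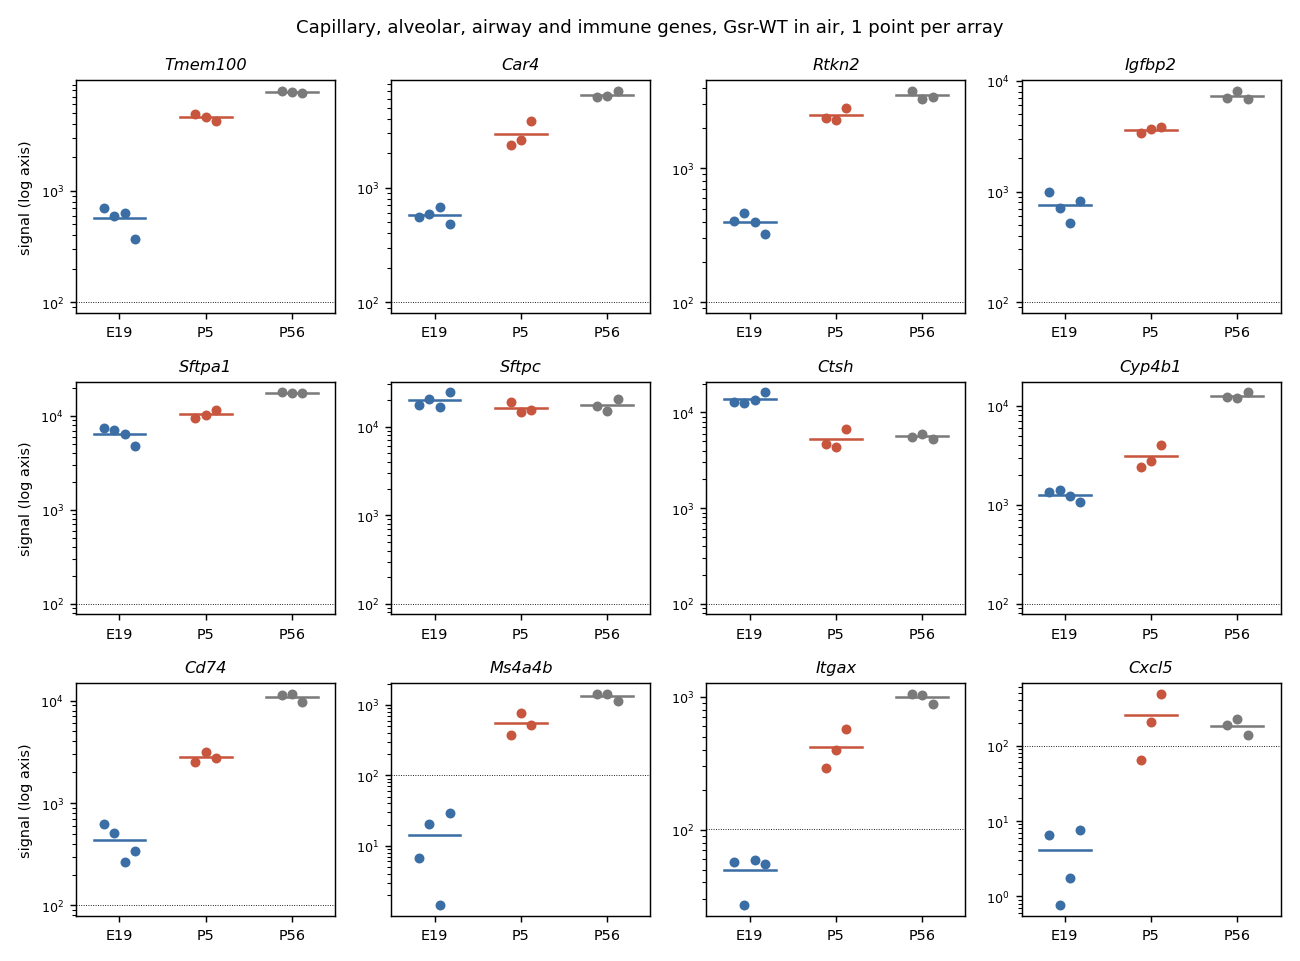
Signal on a log axis of 12 genes on each Gsr-WT air array at E19 (4), P5 (3) and P56 (3), with 1 point per array, horizontal bars at the arithmetic mean and a dotted line at 100.4. Tmem100, Car4, Rtkn2 and Igfbp2 separate E19 from P5, while Sftpc overlaps and Ctsh is lower at P5.

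Type 1 cells form the thin wall of the alveolus, and their markers split. Of 25 genes 10 rose (40%) and 1 fell (4%), against 8.36% and 6.23% of all genes, with a median of 0.22. Rtkn2, a marker of type 1 cells, rose by 2.57 (SE 0.16, limma adjusted p = 5.4e-11). Rtkn2 read 406, 465, 401 and 323 on the E19 arrays and 2370.1, 2287 and 2827 on the P5 arrays. Igfbp2, an IGF-binding protein of late type 1 cells, rose by 2.26. Igfbp2 read 984, 706, 523 and 814 on the E19 arrays and 3361, 3709 and 3829 on the P5 arrays. At P56 Igfbp2 read 6973, 8169.9 and 6808. The basement membrane collagen gene Col4a3 (1.66) and the proteoglycan Spock2 (1.59) rose. Other markers were not called: Ager read 22381, 21244, 16812 and 17328 at E19 and 19839.5, 15943 and 19209 at P5 (-0.08, adjusted p = 0.77), and Pdpn changed by 0.22 (adjusted p = 0.302). Hopx, a homeodomain-only cofactor, fell by 0.47, a call lost without P5 replicate 2 (adjusted p up to 0.092). Aqp5, the apical water channel, was higher on every P5 array but was not called (0.97, adjusted p = 0.056). Without P5 replicate 3 the count that rose was 6.

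Type 2 cells make surfactant, and their gene Sftpc was already high at E19. The level of the type 2 list was -0.58 to -0.27 at E19, -0.51 to -0.17 at P5 and 0.17 to 0.27 at P56. Of 23 genes 5 rose (21.7%) and 2 fell (8.7%), against 8.36% and 6.23% of all genes. The list median of -0.05 lay between -0.24 and 0.034 without any 1 array. Sftpc, the surfactant protein specific to these cells, read 17492, 20688, 16459.9 and 24477 at E19 and 18829.5, 14573 and 15607 at P5. Its change of -0.27 was not called (adjusted p = 0.301), nor were those of Sftpb (0.32), the lipid pump Abca3 (-0.12) and the phosphate carrier Slc34a2 (-0.13). The collectins of host defence did rise, Sftpa1 by 0.71 and Sftpd by 0.76. Sftpa1 read 7402, 7179, 6467 and 4746 on the E19 arrays and 9469, 10129 and 11662 on the P5 arrays. Sftpd read 4808, 5056, 4627 and 3353 on the E19 arrays and 6629, 7271 and 8736 on the P5 arrays. Each P5 array of either gene was above each E19 array. The chitinase-like Chil1 rose by 1.63 and lysozyme Lyz1 by 0.71, with the caution that Lyz1 and Lyz2 are near-identical genes. Ctsh, a cathepsin that processes surfactant protein B, fell by 1.401 (SE 0.26, limma adjusted p = 0.00078). Ctsh read 12889.7, 12446, 13379 and 16276 on the E19 arrays and 4632, 4402 and 6741 on the P5 arrays. Of 34 surfactant phospholipid genes, which include both collectins, 5 rose (14.7%) and 2 fell (5.88%). Among them were Plpp1 (1.28) upward and Pemt (-1.49) downward, the latter with overlapping arrays.

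In the airway, of 20 club and secretory genes 5 rose (25%) and 2 fell (10%), against 8.36% and 6.23% of all genes. Scgb1a1, the club cell secretory protein, had a change of 0.39 (adjusted p = 0.068). The cytochromes P450 of club cells rose, Cyp4b1 by 1.24 and Cyp2f2 by 0.96. Cyp4b1 read 1344, 1421, 1235 and 1078 on the E19 arrays and 2437, 2782 and 4042 on the P5 arrays. At P56 Cyp4b1 read 12222, 12100.1 and 13743. Cldn10, a tight junction claudin of secretory cells, fell by 2.13. Cldn10 read 3771, 2879.9, 4266 and 3678 on the E19 arrays and 723, 749.9 and 963 on the P5 arrays. Foxj1, the master factor of ciliated cells, read 931, 782, 617 and 432 at E19 and 266, 472 and 387 at P5, and its change of -0.82 was not called (adjusted p = 0.29). Cyp1a1, the aryl hydrocarbon receptor target, rose by at least 2.03. Cyp1a1 read 23.4, 29.2, 27.6 and 72.8 on the E19 arrays and 399, 425 and 691 on the P5 arrays. Of 35 cytochrome P450 genes 7 rose (20%) and 6 fell (17.1%), with 3 rising without P5 replicate 3. The number that fell was 15 without E19 replicate 1, 3 without E19 replicates 2, 3 or 4 or P5 replicate 2, and 2 without P5 replicate 3. Among those that fell, Cyp2e1 (-1.99) is best known from liver.

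Immune genes were among the strongest increases. Of 18 genes of dendritic cells and MHC class II 7 rose (38.9%, against 8.36% of all genes) and none fell, with a median of 0.58. That median was 0.34 with the offset at the median signal and 1.01 with a stricter filter. Cd74, the invariant chain of class II molecules, rose by 2.69 (SE 0.32, limma adjusted p = 3.5e-06). Cd74 read 626, 505, 266 and 337 on the E19 arrays and 2515, 3144 and 2757 on the P5 arrays. H2-Aa rose by 2.38, H2-Ab1 by 1.75 and H2-Eb1 by 1.66. H2-Aa read 218, 254, 153 and 166 on the E19 arrays and 1013, 1303 and 1082 on the P5 arrays. At P56 Cd74 read 11319, 11648 and 9746, above all P5 arrays.

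Of 19 genes of T cells and natural killer cells 11 rose (57.9%) and 1 fell (5.26%), against 8.36% and 6.23% of all genes. The list median of 0.91 was 0.43 with the offset at the median signal and 1.48 with an offset of 1. Ccl5, a chemokine of memory lymphocytes, was near the floor at E19. Ccl5 read 5.73, 7.23, 3.44 and 7.87 on the E19 arrays and 262, 525 and 291 on the P5 arrays. It rose by at least 1.54, and the granzyme Gzma by at least 1.78. Gzma read 59.5, 48.7, 43.3 and 78.2 on the E19 arrays and 162, 1109.9 and 361 on the P5 arrays. Cd3g, part of the T cell receptor complex, rose by at least 0.14, and Gata3, a T cell factor, by at least 0.61, while Cd3e stayed under 100.4 on all 7 arrays and was not called. Gzmb fell by 1.35. Without P5 replicate 2, the array highest in this list, 7 genes rose. Of 19 B cell genes 5 rose (26.3%), including Ms4a1, which encodes CD20 (1.99), and Ighm, the IgM heavy chain (2.59). The call of Ighm was lost without E19 replicates 1 or 3 or P5 replicates 2 or 3 (adjusted p up to 0.082). The number of B cell genes that rose was 2 without E19 replicate 1, E19 replicate 3 or P5 replicate 3. It was 3 without P5 replicate 1 or P5 replicate 2. Cd79a was not called (adjusted p = 0.054).

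Among alveolar macrophage genes 6 of 24 rose (25%) and 2 fell (8.33%), against 8.36% and 6.23% of all genes. Itgax, the integrin CD11c, rose by at least 1.77. Itgax read 57.1, 26.9, 59.3 and 54.8 on the E19 arrays and 293, 396 and 573 on the P5 arrays. Ctsk (1.41) and Atp6v0d2, a proton pump subunit of macrophages (at least 1.48), rose. Siglecf, the defining lectin of these cells, was called higher although all 7 arrays read under 100.4. Siglecf read 0.346, 4.5, 14.1 and 42.5 on the E19 arrays and 47.2, 66.7 and 70.7 on the P5 arrays. No size is given for it. Marco, a scavenger receptor, had a change of 1.05 (adjusted p = 0.11) and Chil3 of -1.20 (adjusted p = 0.12). Of 53 genes of complement, chemokines and innate defence 14 rose (26.4%) and 1 fell (1.89%), with a median of 0.36 (0.23 without P5 replicate 3). Cxcl5, a neutrophil-attracting chemokine of alveolar epithelium, rose by at least 0.80, with P5 arrays that differed widely. Cxcl5 read 6.6, 0.762, 1.73 and 7.56 on the E19 arrays and 64.6, 205 and 488 on the P5 arrays. Retnla, a resistin-like secreted protein, rose by 2.62 and Ccl6 by 2.36, both with the highest value on P5 replicate 3. Retnla read 557, 638, 562 and 391 on the E19 arrays and 1598, 3415 and 7109 on the P5 arrays. The MHC class I gene H2-K1 rose by 1.45, and class I genes are near-identical in parts. Of 10 mast cell and basophil genes 5 rose (50%), with the highest list level on P5 replicate 3. Without that array, or without P5 replicate 2 or E19 replicate 3, 3 rose.

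Transcripts of blood cells and of tissues other than lung varied by array. Hbb-y, the embryonic beta-like globin, fell, by a change of at least -1.76. Hbb-y read 502, 289, 519 and 344 on the E19 arrays and 28.1, 23 and 2.55 on the P5 arrays. Hba-x, the embryonic alpha-like globin, fell, by a change of at least -0.47, a call lost without P5 replicates 2 or 3 (adjusted p up to 0.084). Hba-x read 189, 96.4, 170.3 and 154 on the E19 arrays and 89.4, 16.6 and 5.39 on the P5 arrays. Both fell although Alas2, the enzyme of haem synthesis in red cells, was not called (-0.50, adjusted p = 0.29). Of 26 erythroid genes 6 fell (23.1%) and 1 rose (3.85%), against 6.23% and 8.36% of all genes. But 17 fell without E19 replicate 1, which was lowest in erythroid genes. Between 1 and 3 fell without each of the other arrays except E19 replicate 3. Of 20 neutrophil genes 4 fell (20%) and 1 rose (5%). The granule genes Prtn3 (-2.16), Mpo (-1.94) and Elane (at least -1.01) were called lower with overlapping arrays. Mpo read 81.7, 3122, 808 and 3403 on the E19 arrays and 381, 273 and 116 on the P5 arrays. Of the E19 arrays, replicate 1 lay below all P5 arrays. The number that fell was 1 without E19 replicate 2, 2 without P5 replicate 1 and none without E19 replicate 4 or P5 replicates 2 or 3. The call of Mpo was lost without any 1 array other than E19 replicate 1 (adjusted p up to 0.202), that of Prtn3 lost without E19 replicates 2 or 4 or P5 replicates 2 or 3 (adjusted p up to 0.081) and that of Elane lost without E19 replicate 4 or P5 replicates 2 or 3 (adjusted p up to 0.069). S100a8, of mature neutrophils, was not called (-0.09).

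**Figure D4:**
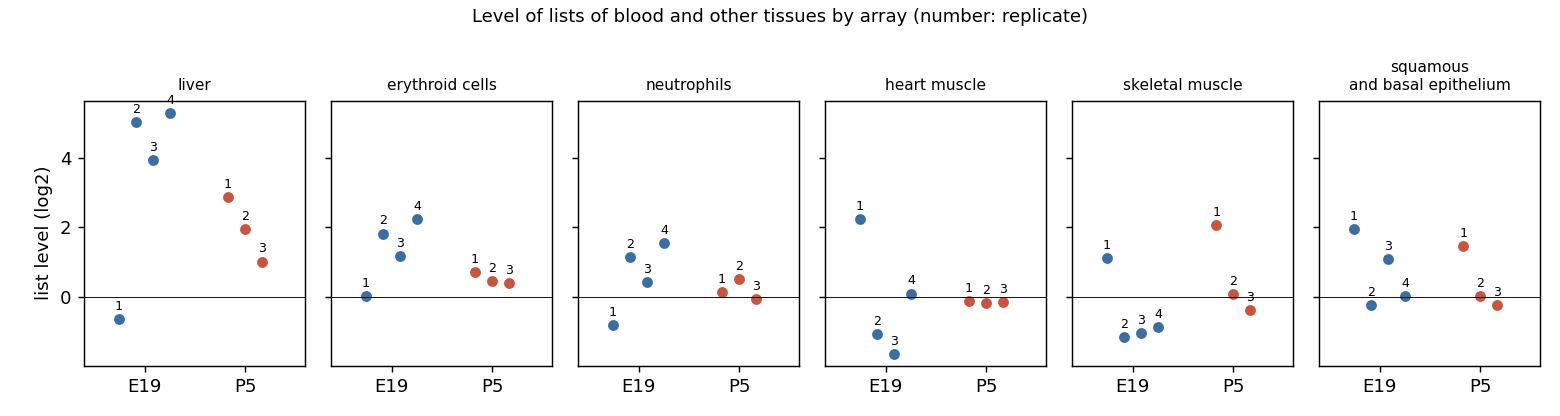
Level (vertical axis, mean of centred log2 values) of 6 lists of blood cells and tissues other than lung on each Gsr-WT array, numbered by replicate. E19 replicate 1 is low in liver, erythroid and neutrophil genes and high in heart muscle and squamous genes, and P5 replicate 1 is highest in skeletal muscle genes.

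Liver genes differed most between arrays. The list level was -0.63, 5.02, 3.93 and 5.29 on the E19 arrays and 2.88, 1.94 and 1.02 on the P5 arrays. Alb, serum albumin, read 846, 23373, 19468 and 25895 at E19 and 18312, 11847 and 7286 at P5. Of 31 liver genes 6 fell (19.4%, against 6.23% of all genes) and none rose. Liver genes that fell numbered 28 without E19 replicate 1, 1 without E19 replicate 2 and 2 without E19 replicate 3. None fell without E19 replicate 4, P5 replicate 2 or P5 replicate 3. Heart muscle genes were at 2.25, -1.05, -1.62 and 0.11 on the E19 arrays and -0.11, -0.18 and -0.13 on the P5 arrays, and none of 20 was called by limma's adjusted p, while none had an unadjusted p under 0.05. Myh6, the atrial myosin, read 14752, 2969, 918 and 2029 at E19. Skeletal muscle genes were at 1.12, -1.13, -1.04 and -0.84 on the E19 arrays and 2.07, 0.10 and -0.38 on the P5 arrays, with Tnnc2, fast troponin C, at 2074, 181 and 29 on the P5 arrays. Of the squamous genes 3 of 16 fell (18.8%), with 1 without E19 replicates 1 or 3 and none without P5 replicates 2 or 3. Krt13 read 3271, 39.3, 1179 and 47 at E19 and 2875, 223 and 99.3 at P5. What these tissues contributed to other results was not tested beyond the fits with these levels as covariates, in which 1336 genes (liver level) and 2269 genes (muscle and squamous levels) were called.

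Transcription factors of lung development moved both ways. Of 45 listed factors 7 rose (15.6%) and 9 fell (20%), against 8.36% and 6.23% of all genes. Etv4, an ETS factor downstream of FGF signalling, was near the floor at E19 and rose by at least 0.80. Etv4 read 24.8, 10.2, 7.88 and 19.1 on the E19 arrays and 232, 172 and 184 on the P5 arrays. It read 12.6, 7.56 and 6.19 at P56. Its relative Etv5, a type 2 cell factor, fell by 0.83, a call lost without any 1 of the 7 arrays (adjusted p up to 0.15). Foxp2, a forkhead repressor of airway epithelium, fell by 1.57 (SE 0.18, limma adjusted p = 3.2e-06). Foxp2 read 2771, 2345, 2571 and 1883 on the E19 arrays and 729.6, 752 and 859 on the P5 arrays. Klf5, a Kruppel-like factor of epithelial growth, fell by 1.396, and Sox9, the factor of distal tip progenitors, by 1.11. Klf5 read 4547, 3916, 3771 and 2761 on the E19 arrays and 1489, 1287 and 1390.3 on the P5 arrays. The call of Sox9 was lost without E19 replicate 2 or P5 replicates 1 or 3 (adjusted p up to 0.0904). Foxf1, a mesenchymal and endothelial factor, rose by 0.89, and Id4 and Id3, inhibitors of basic helix-loop-helix factors, by 1.26 and 0.70. Foxf1 read 3645, 4152, 3841 and 3273 on the E19 arrays and 7333, 6298 and 7074 on the P5 arrays. Nkx2-1, the lineage factor of lung epithelium, read 197, 205, 226 and 153 at E19 and 128, 111 and 126 at P5, which do not overlap. Its change of -0.57 was not called (adjusted p = 0.24), nor was that of Foxa2 (-0.18) or Cebpa (-0.73). Without P5 replicate 1 or P5 replicate 2 the count that fell was 5.

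Hox genes, which record position along the body axis, rose in 6 of 12 cases (50%) and fell in none, with a median of 0.69. Hoxb6 rose by 1.38, Hoxb4 by 1.11 and Hoxb2 by 0.83. Hoxb6 read 227, 223, 202 and 205 on the E19 arrays and 529.7, 593 and 682 on the P5 arrays. The count was 3 without E19 replicate 4, P5 replicate 1 or P5 replicate 2. Among the Sox family, Sox7, of endothelium, rose by 1.65 and Sox4, a factor of progenitor cells, by 0.95. Sox7 read 1051, 1025, 898 and 481 on the E19 arrays and 3229, 2729 and 2099.8 on the P5 arrays. Klf2, the factor that blood flow induces in endothelium, rose by 1.08 and Klf11 by 0.95. Klf2 read 1449.8, 1206, 1156 and 1009.6 on the E19 arrays and 2363, 2623 and 2673 on the P5 arrays. Of 18 circadian clock genes 1 rose and 1 fell, and of 31 nuclear receptors 2 rose and 2 fell (6.45% each way), near the shares of all genes. Nr1d2, a clock repressor, rose by 1.504, Per2 fell by 1.11 and the nuclear receptor Nr5a2 fell by 1.27. Nr1d2 read 772, 711, 789 and 902 on the E19 arrays and 2320.0, 1845 and 2806 on the P5 arrays. The time of day of collection was not among the labels.

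Several signalling genes of mesenchyme and vessels rose. Of 53 genes of Notch, Hedgehog, Wnt and Bmp signalling 16 rose (30.2%) and 1 fell (1.89%), with a median of 0.36. Among all genes 8.36% rose and 6.23% fell. The list median was 0.20 without E19 replicate 4, where 11 rose, and 0.22 with the liver level as a covariate. Wnt11, a ligand of non-canonical Wnt signalling, rose by 1.87 (SE 0.30, limma adjusted p = 0.00015). Wnt11 read 275, 227, 178 and 183 on the E19 arrays and 839.5, 802 and 902 on the P5 arrays. At P56 it was back to 266, 285 and 264. Smad6, the inhibitory Smad that Bmp signals induce, rose by 1.76, with the ligand Bmp6 (1.52). Smad6 read 1222, 1208, 932 and 656 on the E19 arrays and 3531, 3242 and 3305 on the P5 arrays. Lgr5, a Wnt-amplifying receptor, was the 1 that fell (at least -0.18), a call lost without E19 replicates 1 or 2 or P5 replicates 1, 2 or 3 (adjusted p up to 0.083). Of 52 growth factors and receptors 13 rose (25%) and 4 fell (7.69%), with 7 rising without E19 replicate 4 or P5 replicate 1. Without P5 replicate 2, 8 of these genes rose. Pdgfa, needed for alveolar myofibroblasts, rose by 0.94 and was picked after its values were seen. Pdgfa read 2577, 2152, 2302 and 1408 on the E19 arrays and 3920.0, 4133 and 3906 on the P5 arrays. Gdf10, a member of the Bmp family, fell by 0.96. Of 28 genes of vasoactive signalling 7 rose (25%) and 2 fell (7.14%), with 4 rising without P5 replicate 1. Edn1, the vasoconstrictor endothelin, rose by 1.19 and Edn3 fell by 1.88. Edn1 read 263, 255, 363 and 170.2 on the E19 arrays and 661, 645 and 546 on the P5 arrays. Edn3 read 1344, 1302, 1295 and 957 on the E19 arrays and 313, 276 and 344 on the P5 arrays. Ptgs2, the inducible cyclooxygenase, rose by at least 1.02, with Hpgd, which degrades its products.

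Genes of fluid and ion transport changed in both directions. Of 25 listed genes 3 rose (12%) and 4 fell (16%), against 8.36% and 6.23% of all genes. The median was -0.037 and lay between -0.17 and 0.098 without any 1 array. The beta and gamma subunits of the epithelial sodium channel rose, Scnn1b by 0.85 and Scnn1g by 0.81, whereas the alpha subunit Scnn1a was not called (0.06, adjusted p = 0.93). Scnn1b read 225, 203, 299 and 273 on the E19 arrays and 370.3, 448 and 617 on the P5 arrays. Scnn1g read 2025, 1824, 1768 and 1283 on the E19 arrays and 2459, 2534 and 4369.9 on the P5 arrays. P5 replicate 3 was highest for both. The call of Scnn1b was lost without P5 replicate 3 (adjusted p up to 0.11) and that of Scnn1g lost without P5 replicate 3 (adjusted p up to 0.075), and 1 gene of the list then rose. Nedd4l, the ligase that removes this channel from the membrane, fell by 1.78 (SE 0.39, limma adjusted p = 0.003), and Sgk1, which inhibits Nedd4l, rose as given above. Nedd4l read 3648, 3290.5, 3321 and 2489 on the E19 arrays and 900.1, 873 and 930.1 on the P5 arrays. Chloride secretion genes were not called, with -0.06 for Cftr and -0.34 for Slc12a2. A pair of proton pump genes fell below the filter signal. Atp6v0a4, a vacuolar proton pump subunit of acid-secreting cells, fell, by a change of at least -1.98. Atp6v0a4 read 515, 462, 486 and 435 on the E19 arrays and 39.3, 45.7 and 14.3 on the P5 arrays. Atp12a, the non-gastric proton-potassium pump, fell, by a change of at least -1.29. Atp12a read 284, 297, 296 and 260.0 on the E19 arrays and 37.8, 34.2 and 20.0 on the P5 arrays. Tmem213, a small membrane protein, had the strongest decrease of the genes chosen for description on the fitted scale (-3.38). Tmem213 read 4273, 4278, 3605 and 3177 on the E19 arrays and 453, 343 and 253 on the P5 arrays. All 3 read low at P56 too, where Tmem213 was 142, 184 and 189.

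Of 234 solute carriers 23 rose (9.83%) and 19 fell (8.12%), shares near the 8.36% and 6.23% of all genes. Carriers of osmolytes and organic solutes were among those that rose: Slc5a3, for myo-inositol, by 1.62, Slc6a6, for taurine, by 1.47, and Slc16a9, a monocarboxylate carrier family member, by 1.54. Slc5a3 read 618, 678, 482 and 399.6 on the E19 arrays and 1966, 1848 and 1344 on the P5 arrays. Slc6a6 read 1513, 1984, 1288 and 864 on the E19 arrays and 4372, 4411 and 2809.6 on the P5 arrays. The sodium-calcium-potassium exchanger Slc24a3 rose by 1.62 and the zinc carrier Slc39a2 by at least 0.56. Slc38a3, a glutamine carrier best known from liver, fell by 2.06. The number that fell was 28 without E19 replicate 1, 10 without E19 replicate 2, 7 without E19 replicate 4, 11 without P5 replicate 1 and 6 without P5 replicates 2 or 3. Of 37 ATP-binding cassette genes 7 rose (18.9%) and 6 fell (16.2%), with increases of 1.45 for Abcc3 and 1.03 for Abcc1, which export conjugates. The number that rose was 4 without E19 replicate 3 or any 1 P5 array, and the number that fell was 3 without P5 replicate 2. Both subunits of the vascular ATP-sensitive potassium channel fell together, Kcnj8, its pore, by 1.48 and Abcc9, its sulfonylurea receptor, by 1.30. Kcnj8 read 1359.5, 814, 1051 and 1087 on the E19 arrays and 393, 378 and 326 on the P5 arrays. Abcc9 read 4207, 3264, 2524 and 1351 on the E19 arrays and 1312, 1243 and 697 on the P5 arrays. The E19 and P5 arrays of either gene did not overlap, and the call of Abcc9 was lost without P5 replicate 3 (adjusted p up to 0.11).

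Matrix genes rose in selected classes. List levels of matricellular glycoproteins and of matrix proteases and inhibitors did not overlap between the ages. In other matrix lists E19 replicate 1 reached the P5 levels. It was at 0.38 for elastic fibre (P5 0.36 to 0.47) and 0.23 for proteoglycan genes (P5 0.20 to 0.27). For laminin, nidogen and integrin genes it was at 0.26 (P5 0.24 to 0.30). In collagen genes, at 0.51, it lay above every P5 array (0.21 to 0.34). Of 29 matricellular and adhesive glycoproteins 10 rose (34.5%) and 3 fell (10.3%), against 8.36% and 6.23% of all genes, with a median of 0.42. Tnc, tenascin C, a glycoprotein of remodelling tissue, rose by 2.36 (SE 0.39, limma adjusted p = 0.00023). Tnc read 1846, 1708, 918 and 771 on the E19 arrays and 7049, 6538 and 5723 on the P5 arrays. At P56 it read 624, 714 and 392, below the lowest P5 array. Thbs3, a thrombospondin, rose by 2.48, Spon2 by 1.73 and Ecm1 by 1.51, while Smoc1 fell by 1.43. Thbs3 read 371, 331, 494 and 267 on the E19 arrays and 1957, 1969 and 2447 on the P5 arrays. Of 30 proteoglycan and hyaluronan genes 9 rose (30%) and 1 fell (3.33%). Vcan, the hyaluronan-binding versican, and Cd44, a hyaluronan receptor, rose by 1.66 and 1.69. Vcan read 1453, 1275, 851 and 1048 on the E19 arrays and 4143, 3576 and 3258 on the P5 arrays. Vcan read 409, 348 and 263 at P56, whereas Cd44 read 5333, 5269 and 4679.

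**Figure D5:**
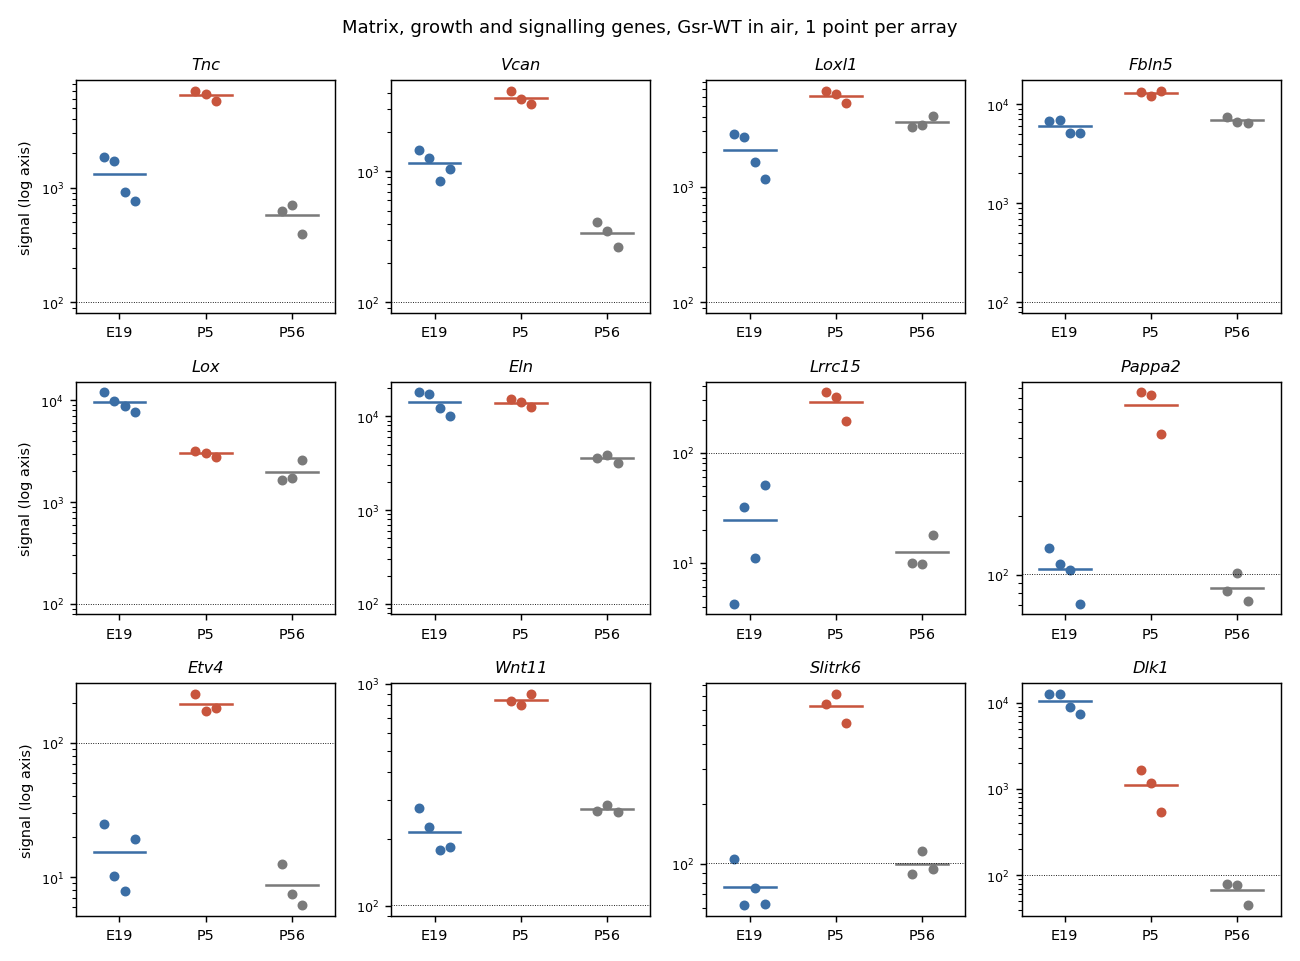
Signal on a log axis of 12 matrix, growth and signalling genes on each Gsr-WT air array at E19 (4), P5 (3) and P56 (3), with bars at the arithmetic mean and a dotted line at 100.4. Tnc, Vcan, Lrrc15, Pappa2, Etv4, Wnt11 and Slitrk6 are high at P5 and low at both other ages, Lox and Dlk1 are lower at P5 than at E19, and Eln overlaps between E19 and P5.

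Of 19 elastic fibre genes 6 rose (31.6%) and 1 fell (5.26%), with a median of 0.41. Between 5 and 7 of the list rose without any 1 array. The median was 0.23 without E19 replicate 4. Elastin itself, Eln, read 18079, 17235, 12232 and 9976 at E19 and 15365, 14180.1 and 12499 at P5, and its change was not called (adjusted p = 1). The fibre assembly proteins rose: Fbln5, which guides elastin onto microfibrils, by 1.13, Mfap5 by 1.83 and Ltbp2 by 1.54. Fbln5 read 6726, 6936, 5170.4 and 5063 on the E19 arrays and 13189, 12071 and 13702 on the P5 arrays. Ltbp2 read 2192, 1975, 1569 and 893 on the E19 arrays and 5135, 4621 and 4156 on the P5 arrays. The crosslinking enzymes diverged, with Loxl1, which acts on elastin, up by 1.62 and Lox, which acts on collagen and elastin, down by 1.65 (limma adjusted p = 0.00044 and 8e-05). Loxl1 read 2844, 2689.8, 1626 and 1162 on the E19 arrays and 6754, 6272 and 5290.5 on the P5 arrays. Lox read 12005, 9949, 8784 and 7704 on the E19 arrays and 3205, 3069 and 2761 on the P5 arrays. In both, the E19 and P5 arrays were separate. The microfibril gene Fbn2 had a change of -0.41 (adjusted p = 0.39).

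Of 35 collagen genes 5 rose (14.3%) and 2 fell (5.71%), against 8.36% and 6.23% of all genes. Col1a1, the chain of collagen I, was called at 1.34 with overlapping arrays, a call lost without E19 replicate 4 or P5 replicates 1 or 2 (adjusted p up to 0.062). Col1a1 read 4307, 3251, 1751 and 1118 on the E19 arrays and 7421, 6523 and 4119 on the P5 arrays. Col3a1 (0.26) and Col6a1 (-0.06) were not called. The collagen count was 8 without E19 replicate 1, 1 without E19 replicate 4 or P5 replicate 1, and 3 without E19 replicate 3, P5 replicate 2 or P5 replicate 3. P4ha1, a prolyl hydroxylase of collagen that is also on the HIF list, fell by 0.98, a call lost without any 1 array other than E19 replicate 4 (adjusted p up to 0.15). Of 63 proteases and inhibitors of matrix 14 rose (22.2%) and 3 fell (4.76%). The number that rose was 9 without E19 replicate 3, E19 replicate 4, P5 replicate 2 or P5 replicate 3. Plat, tissue plasminogen activator, rose by 1.61 and Adamts8 by 1.56, while Adamtsl2, a microfibril-binding regulator, fell by 1.75. Plat read 506, 338, 300.4 and 385 on the E19 arrays and 1292, 1084 and 1245 on the P5 arrays. Adamtsl2 read 2032, 2055, 1986 and 1020.0 on the E19 arrays and 528, 432 and 515 on the P5 arrays. Htra1, a secreted serine protease, rose by 2.39, and Pappa2, which cuts IGF-binding proteins, by 2.51. Pappa2 read 136, 114, 106 and 71 on the E19 arrays and 853, 823 and 523 on the P5 arrays. Lrrc15, a membrane protein of matrix-producing fibroblasts, rose by at least 1.28 and read 9.92, 9.74 and 18 at P56. Lrrc15 read 4.24, 32, 11.1 and 51 on the E19 arrays and 355, 321 and 193 on the P5 arrays. Of 35 laminin, nidogen and integrin genes 7 rose (20%) and 2 fell (5.71%). Those that rose included Itgb2, the integrin chain of leukocytes (1.39), and Lama2, a laminin chain (1.23). The number that fell was 5 without E19 replicate 4.

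Of 37 antioxidant genes 2 rose (5.41%) and 5 fell (13.5%), against 8.36% and 6.23% of all genes. Sod3, the extracellular superoxide dismutase, rose by 1.05, a call lost without E19 replicates 3 or 4 or P5 replicates 2 or 3 (adjusted p up to 0.098). Nfe2l2, the factor Nrf2, fell by 0.90 and Prdx3, a mitochondrial peroxiredoxin, by 0.90. Nfe2l2 read 4770.2, 4166, 5409 and 5077 on the E19 arrays and 2193, 2336 and 3323 on the P5 arrays. Prdx3 read 2171, 2546, 2651 and 4399.8 on the E19 arrays and 1524, 1520.5 and 1479.8 on the P5 arrays. Neither gene overlapped, and the call of Nfe2l2 was lost without P5 replicates 1 or 2 (adjusted p up to 0.065). Gpx3, a secreted glutathione peroxidase, fell by 1.33, a call lost without any 1 of the 7 arrays (adjusted p up to 0.16), and catalase, Cat, had a change of -0.10 (adjusted p = 0.76). Without P5 replicate 1 or P5 replicate 2 the count that fell was 3, and without E19 replicates 3 or 4 or P5 replicates 2 or 3 none rose. In retinoid metabolism 2 of 19 genes rose and 2 fell (10.5% each way), near the 8.36% and 6.23% of all genes. The list was led by Crabp1, the cellular retinoic acid binding protein. Crabp1 read 88.4, 51.5, 95.9 and 122.7 on the E19 arrays and 614, 543 and 393 on the P5 arrays.

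Levels at P56 differed among the 25 strongest increases. In 9 of the 25 every P56 array was below every P5 array, as in Prokr2, Lrrc15, Slitrk6, Pappa2, Etv4 and Tnc, and in 10 every P56 array was above, as in Ms4a4b, Ccl5, Tmem100, Hpgd, Cd74 and Rtkn2. Prokr2 read 1.54, 26.7, 2.66 and 13.8 at E19, 639.8, 524 and 298 at P5 and 24.5, 33.9 and 21.9 at P56. Slitrk6, a neurite-controlling membrane protein, read 106, 61.7, 75.8 and 63 at E19, 638, 720.1 and 514 at P5 and 89.1, 116 and 93.9 at P56. Of the 25 strongest decreases 11 read lower on every P56 array than on any P5 array, though in 5 of these the P5 arrays already lay under 100.4, where values have no reliable order, 4 were higher on every P56 array and 10 overlapped. The P5 arrays are common to both steps, so these levels are a description. The share of all genes with such a separation of P56 from P5 was not counted, so these counts have no background beside them.

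The Gsr-KO mice share no array with the comparison and give a second series of lungs at the same ages. Of the 1946 genes called in Gsr-WT 1684 (86.5%) had a change of the same sign in Gsr-KO, against 64.9% of all genes, and 202 (10.4%) were called there in that direction, where 3.45% of all genes were called. Without Gsr-KO P5 air replicate 1, an array that stands apart from its group, these were 90.7% against 68.2%, and 685 (35.2%), where 11.7% of all genes were called. On that array the HIF list was at 0.59, against -0.10 and -0.24 on the other Gsr-KO P5 air arrays. The imprinted list was at 0.92, against 0.24 and 0.16, and the glucocorticoid list at 0.39, against -0.31 and -0.47. In these lists it lay within the range of the Gsr-KO E19 arrays (0.35 to 0.87, 0.29 to 1.08 and 0.33 to 0.47). The Gsr-KO changes given below include this array. Gsr-KO E19 replicate 1 had a log2 ratio of 3′ to 5′ control signal of 4.37, while the other Gsr-KO arrays of these ages lay between -0.0094 and 0.70. Without it the shares were 89.9% against 70.1%, and 296 (15.2%), where 5.29% of all genes were called. Leaving out these arrays was chosen after the data were seen. The genotype-by-age term, which tests whether the change differs between genotypes, was called for 25 genes (0.187%), for 17 without P5 air replicate 1 (12 in common) and for 29 without E19 replicate 1 (22 in common). The 25 included, with fitted changes, Rtkn2, with 0.26 in Gsr-KO against 2.57 in Gsr-WT, Chst1 (0.06 against 1.97), Car4 (0.61 against 2.27), Epas1 (0.13 against 1.17), Sftpa1 (-0.28 against 0.71), Cyp4b1 (-0.06 against 1.24) and Crh (-0.43 against at least -1.68). Rtkn2, Chst1 and Crh were called without any 1 of the 14 arrays. Without Gsr-KO P5 air replicate 1 the adjusted p was 0.105 for Car4, 0.12 for Epas1, 0.058 for Sftpa1 and 0.099 for Cyp4b1, so that these 4 calls were lost, and each was also lost without other arrays (adjusted p up to 0.19). Among the HIF-list genes the Gsr-KO change was -1.70 for Slc2a1, -1.62 for Ndrg1 and -1.70 for Ankrd37, and the term was not called for any of the 3.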

How the data were processed

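Total RNA from a portion of each mouse's lung (200 ng) was amplified and hybridised to Affymetrix mouse expression arrays, per the labels' protocols. The authors deposited linear signal intensity values for 45101 probe sets. MAS5 is named in the submitters' processing notes, and its version and detection calls are not given in the sources used here. On each array the mean without the lowest and highest 2% was 500. The 34945 probe sets with 1 gene symbol in the platform annotation were used, 932 with several symbols and 9160 with none were not named, and 64 are controls. Values were analysed as log2 (signal + 26.3), the offset being the 25th percentile of all values. Probe sets above 100.4 on at least 3 arrays were kept, and 13345 genes were represented by the probe set with the highest mean. Of the 1946 called genes 865 had another kept probe set. For 172 of these another probe set had the opposite sign, and for 3 it was called. limma 3.58.1 in R 4.3.3 fitted 10 group means to 32 arrays (22 residual degrees of freedom, variance trend, empirical Bayes, Benjamini-Hochberg over all genes, threshold 0.05). The fit was tested on simulated data.

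A list level is the mean over its genes of log2 values centred over all 32 arrays. Gene names in the text follow a rule: Gsr, the 25 strongest called and separate changes each way, up to 6 called members of each list in each direction, and a set of anchor genes, with other names marked in the text. Members and lists were chosen with earlier results of these data known. Replicate numbers are taken from the titles. The labels name no batch, and no block was used in the main fit. Deviations of same-numbered arrays correlated at -0.15, 0.12 and -0.02, which cannot show whether the numbers pair anything. No arrays held identical values. Promoter windows come from RefSeq, GRCm38.p6. Alternatives covered filter, offset, scaling, probe sets, variance prior, array weights, covariates, block and each array left out.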

Additional observations from a re-analysis of the deposited data

Results flagged for a closer look

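In 22 of 321 genes and lists 1 of the 4 E19 arrays lay far from the other three by Dixon's criterion. Chance gives such a gap in about 1 of 20 groups. Replicate 4 was the array apart for Adamtsl2 (1020.0), Aqp5 (1832), Cftr (416), Cyp1a1 (72.8), Edn3 (957), Epas1 (4925), G0s2 (5280.2), H2-K1 (274), Hoxb4 (164), Limch1 (5272), Scd1 (5445), Slc34a2 (8888) and Zbtb16 (631). Replicate 1 was apart for Alb (846) and Tnnc2 (261), replicate 2 for Cebpa (3191) and Itgax (26.9) and replicate 3 for Vegfa (4549). Each value is the signal of that array. Among list levels, alveolar type 2 cells was at -0.58 on E19 replicate 4, mast cells and basophils was at -0.13 on E19 replicate 1, skeletal muscle was at 1.12 on E19 replicate 1 and ribosome and translation was at 0.45 on E19 replicate 4.

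The change from E19 to P5 differed between genotypes, by limma's genotype-by-age term, for 8 of the named genes. The Gsr-KO change minus the Gsr-WT change was -1.66 for Car4, -1.84 for Chil1, -1.92 for Chst1, 2.89 for Crh, -1.30 for Cyp4b1, -1.04 for Epas1, -2.31 for Rtkn2 and -0.98 for Sftpa1. In Crh the Gsr-WT change was the more negative, and in the others the Gsr-WT change was the more positive. The value for Crh is on the fitted scale, with all Gsr-WT P5 arrays under 100.4. Without Gsr-KO P5 air replicate 1, Car4, Cyp4b1, Epas1 and Sftpa1 were no longer called (adjusted p 0.105, 0.099, 0.12 and 0.058).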

How the results depend on the processing

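The count of 1946 called genes lay between 1336 and 2269 under the other filters, offsets, scalings, variance priors and covariates with 1 probe set per gene, and no gene was called in opposite directions. Array weights gave 4740 calls (2531 higher, 2209 lower), every probe set on its own 2641, and a change over 2-fold as a further condition 775 (417 higher, 358 lower). Leaving out 1 array gave 1031 to 2202 calls, 635 to 1225 higher and 396 to 977 lower, the fewest without P5 replicate 2 and also few without P5 replicate 1 (1251). With the replicate numbers as a block, 1605 genes were called (854 higher, 751 lower), 1166 of them shared with the 1946, and in the 7 arrays alone 1732, 1324 shared. Deviations of same-numbered arrays were weakly correlated, which cannot show whether the numbers pair anything. No P5 array is numbered 4, so in the block fit E19 replicate 4 has its own term and does not enter the change. List medians with the block therefore equal those without that array, such as -0.15 for alveolar type 2 cells. What else made the counts differ was not tested. The genotype-by-age term gave 25 calls, 39 after quantile normalization, 421 with array weights, 50 with muscle and squamous covariates, 1 in the 14 arrays alone, 0 with the replicate block and 12 to 330 without 1 array, of which 330 was without Gsr-WT E19 replicate 1, 117 without Gsr-KO E19 replicate 2 and 52 without Gsr-KO E19 replicate 3. Of 242 named genes 198 were called, and 150 of these were called under every alternative. None of the 198 changed sign under any of them. Of 3002 list counts recomputed, 2318 stayed within 1.5 times the main count.

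These genes without a call had the other sign: Ager (0.13 with quantile normalization, -0.15 to 0.017 without 1 array), Alb (-0.10 with the muscle covariates, -0.96 to 0.67 without 1 array), Cftr (0.16 with the muscle covariates, -0.36 to 0.22 without 1 array), Col6a1 (-0.30 to 0.076 without 1 array), Ednrb (0.010 with the muscle covariates, -0.26 to 0.045 without 1 array), Eln (2.3e-05 with offset 1, 0.14 with quantile normalization, 0.044 with median centring, 0.022 with array weights, -0.16 to 0.12 without 1 array), Foxa2 (0.024 with the muscle covariates), Igf1 (-0.012 with the block, -0.012 to 0.40 without 1 array), Krt13 (-0.32 with array weights, -0.51 with the block, -0.57 with the liver covariate, -1.07 to 1.32 without 1 array), Mki67 (0.049 with array weights, 0.12 with the liver covariate, -0.32 to 0.059 without 1 array), Nr3c1 (-0.052 with the block, -0.052 to 0.11 without 1 array), S100a8 (0.089 with quantile normalization, 0.21 with array weights, 0.42 with the block, 0.62 with the liver covariate, -0.90 to 0.42 without 1 array), Scd1 (0.022 with median centring, 0.034 with the muscle covariates, -0.19 to 0.060 without 1 array), Scnn1a (-0.17 with the block, -0.042 with the liver covariate, -0.049 with the muscle covariates, -0.17 to 0.24 without 1 array) and Vegfa (0.0051 with the muscle covariates, -0.21 to 0.067 without 1 array). The number of arrays and, below 100.4, the distance to background limit these values.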

Other observations

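Contractile and pericyte genes had a positive median change of 0.54 over 21 measured genes, of which 4 rose (19%) and 1, Kcnj8, fell (-1.48). In a separate list of alveolar myofibroblasts and lipofibroblasts 6 of 22 genes rose (27.3%) and 1, G0s2, fell, with a median of 0.21. Among all genes 8.36% rose and 6.23% fell. The number of that separate list that rose was 3 without E19 replicate 4 or P5 replicate 1, and 2 without P5 replicate 2. Postn, periostin of matrix-producing mesenchyme, rose by 1.05. Postn read 12140.0, 7944, 5057 and 5012 on the E19 arrays and 16102, 13925 and 13841 on the P5 arrays. Limch1, an actin-binding protein of myofibroblasts, rose by 0.62, and G0s2, an inhibitor of triglyceride breakdown found in lipid-storing fibroblasts, fell by 1.06. G0s2 read 4395, 4465, 4424 and 5280.2 on the E19 arrays and 2268, 2018 and 2363 on the P5 arrays. The number of smooth muscle and pericyte genes that rose was 7 without E19 replicate 1, 2 without E19 replicate 4 or P5 replicate 2, and 1 without P5 replicate 1. In serine, one-carbon and nucleotide metabolism 4 of 40 genes fell (10%, against 6.23% of all genes) and none rose, with a median of -0.06. The number that fell was 6 without E19 replicate 1. It was 2 without E19 replicate 2, E19 replicate 4, P5 replicate 2 or P5 replicate 3. Psat1, of serine synthesis, fell by 1.33, and Aldh1l1, a folate enzyme, by 2.01. Psat1 read 2024, 2211, 3484 and 4783 on the E19 arrays and 1137, 967 and 1406 on the P5 arrays. Cdkn2c, a cell cycle inhibitor, rose by 1.004 while the snoRNA host gene Gas5 fell by 1.19. Cdkn2c read 1121, 1299, 1053 and 1125 on the E19 arrays and 2577, 2316 and 2105 on the P5 arrays.

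P5 replicate 3 stood apart in p53 target genes, whose level was -0.15, -0.23, -0.21 and -0.24 on the E19 arrays and -0.20, -0.18 and 0.51 on the P5 arrays. Cdkn1a, the p21 inhibitor of the cell cycle, was not called (adjusted p = 0.23). Cdkn1a read 1201, 842, 695 and 702 on the E19 arrays and 848, 839.9 and 6352 on the P5 arrays. Eda2r, a p53-induced receptor, was called higher (at least 0.53), a call lost without E19 replicates 2, 3 or 4 or P5 replicate 3 (adjusted p up to 0.39). Eda2r read 45, 33, 42.8 and 20.5 on the E19 arrays and 64.3, 72.5 and 657 on the P5 arrays. Pmaip1, a proapoptotic p53 target, rose by at least 0.68 with separate groups. Pmaip1 read 30.4, 71.3, 45.1 and 38.8 on the E19 arrays and 149.7, 209.9 and 173 on the P5 arrays. The part of replicate 3 in other results is given by the values without it.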
